A study of Mus musculus with 9 samples.

Results

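The 3 libraries numbered 3 in the sample titles, 1 of each condition, were set against the 6 libraries numbered 1 and 2 of the same 9-library RNA-seq experiment. The cells were primary C57Bl/6 mouse embryonic fibroblasts (MEFs), connective tissue cells grown out of embryos, at passage 2. Every culture received a plasmid with a puromycin resistance gene by electroporation. The plasmid carried no homeobox gene (control), human CRX (eutherian CRX) or opossum CRX (metatherian CRX), the labels give a V5 tag for all 3 conditions, and transfected cells were selected in puromycin for 5 days and, by the labels, left for 48 h before RNA was taken. The study's methods place the recovery before the selection instead, with an overnight culture after it. The labels do not say what the number stands for. The study states that samples were made in pairs and linked in its own tests, without saying whether the number marks the pairs, so the number is used below only as a name, and 1 sequencing run is given for all libraries. The labels do not name separate embryos or litters either, so that p-values measure the spread between these samples, which may be technical.

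The split was chosen from these data, because the libraries numbered 3 lay apart from the others on a principal component analysis. The values that chose it are therefore given as a description without a p-value. On CPM (each gene's count scaled to a common library total of 1e+06) of the 10100 genes kept, as log2 values from which the mean of each condition had been taken, the first component held 70.3% of the variance. The libraries numbered 3 lay at 24.8 (control), 57.0 (eutherian CRX) and 21.2 (metatherian CRX) on it, and the other 6 lay between -29.9 and -4.03. Eutherian CRX 3 stood farthest from the others. For each gene, the log2 CPM of number 3 minus the mean of numbers 1 and 2 was taken within each condition, and the mean of the 3 differences is given ± their SD (n = 3 conditions).

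**Figure D1:**
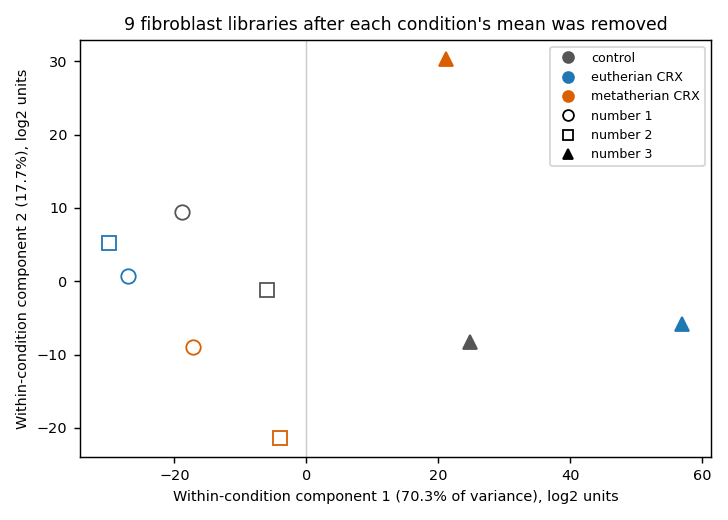
Positions of the 9 libraries on the first (x axis) and second (y axis) within-condition principal component, in log2 units, with colour for condition and shape for replicate number. The filled triangles, the libraries numbered 3, lie at 24.8, 57.0 and 21.2 on the x axis and the open symbols all lie below 0.

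Fibroblasts make and remodel the extracellular matrix, and they keep a record of where in the body they arose in the Hox genes they transcribe. Hox genes lie in 4 clusters, and genes of low group number act towards the head end while those of high group number act towards the tail end and the tips of the limbs. Fibroblasts also answer growth factors through the ERK kinase pathway, whose own targets include phosphatases that shut it off, and answer viral nucleic acid through interferons, whose receptors signal through STAT2 and other factors to DNA elements whose core is a repeat of GAAA.

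Total counts ran from 54145701 to 94699657 per library, with 70896423, 68418688 and 62615692 in the libraries numbered 3, a mean log2 difference of -0.16 that did not pass the test (exact permutation test over the 27 ways to take 1 library of each condition, two-sided p = 0.593, where the smallest p possible is 0.037). The 100 most abundant genes held 19.8 to 23.9% of the counts in number 3 and 24.8 to 26.5% in the others. Of 8 fibroblast markers all were present, and their summed level in number 3 was below both other libraries in every condition, at 21300 CPM against 24800 and 23200 in control, 7770 against 19200 and 18500 for eutherian CRX, and 8260 against 17100 and 15000 for metatherian CRX. A sum of CPM weights abundant genes most, and the markers differed in direction. Col1a1, Fbn1, Pdgfrb and Vim lay below both other libraries in every condition, Thy1 (0.89) and Pdgfra (0.45) above them, and Col1a2 and Dcn on neither side. Summed mesothelial markers (5 genes) were 14.4 to 23.4 CPM against 5.77 to 10.8, and neural and glial markers (9 genes, mostly Nes and Tubb3) 93.0 to 139 CPM against 26.6 to 88.8, both without overlap between any of the libraries. Skeletal and cardiac muscle markers (13 genes) were above both other libraries in every condition, at 110 CPM against 30.2 and 42.8, 36.6 against 19.8 and 17.7, and 32.4 against 19.7 and 18. Bone markers (6 genes) were too, at 47 CPM against 42.4 and 45.1, 68.1 against 39.2 and 37.2, and 65.6 against 45.7 and 58.2. Macrophage and leukocyte markers (15 genes) were 10.2 to 16.7 CPM in number 3 and 7.79 to 57.2 CPM in the others, and these and the endothelial, epithelial, adipocyte, cartilage and pericyte markers did not lie on one side in every condition. The part of these markers in the results below was not tested, and in bulk RNA fewer cells of a type and less RNA per cell cannot be told apart.

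In 2657 genes (26.3%) number 3 lay on the same side of both other libraries in every condition, above them in 1223 (12.1%) and below them in 1434 (14.2%). With a mean difference of at least 2-fold as well, 219 genes (2.17%) were higher in number 3 and 276 (2.73%) were lower, 495 in all (4.9%). These are called separated below. Which side was larger turned with the filter, since among all 18312 genes with a count 766 (4.18%) were higher and 574 (3.13%) lower. The largest of the 3 differences was that of eutherian CRX in 408 of the 495 (82.4%), and without eutherian CRX 3 the counts were 156 higher and 186 lower. The share over all 10100 genes was not computed. The differences of eutherian CRX also had the widest spread over all genes, given below, so 82.4% is not a trait of the separated genes. Without metatherian CRX 3 they were 346 and 371, and without control 3 they were 246 and 438. The SD over genes of number 3 minus the mean of numbers 1 and 2 was 0.485 for the control, 0.865 for eutherian and 0.548 for metatherian CRX, where number 1 minus number 2 had an SD of 0.243, 0.148 and 0.254, respectively. Across the 10100 genes, the differences of control and eutherian CRX correlated with r = 0.69, eutherian and metatherian CRX with 0.46, and control and metatherian CRX with 0.27. Genes are not independent replicates, and no p-value is given for these. Just inside the 2-fold threshold were Mdga2, Btbd11 and Fam110c, each with a mean difference of 1.00 in size, and just outside it Ahnak2 and Mtss1 at 0.997 and Bcl2l11 at 0.996 in size.

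The 15 highest included a receptor, secreted factors, a keratin and a retinoid binding protein. Gpr149, an orphan G protein-coupled receptor, had 2.83 and 4.25 CPM in control 1 and 2 and 52.1 in control 3, 0.866 and 1.66 against 90.2 with eutherian CRX, and 2.84 and 4.51 against 79.7 with metatherian CRX, a mean difference of 4.85 ± 1.20. Cck, which encodes the peptide hormone cholecystokinin, had 0.822 and 1.86 against 18.5 CPM in control, 0.251 and 0.505 against 42.7 with eutherian CRX, and 1.00 and 1.89 against 14.7 with metatherian CRX (4.68 ± 1.84). Krt18, a keratin of simple epithelia, had 0.268 and 0.357 against 2.93 CPM, 0.1 and 0.223 against 11.8, and 1.04 and 1.54 against 8.29 (3.96 ± 1.83). In all 3 genes, every library numbered 3 lay above all 6 others.

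Crabp1 (chr9:54764748-54773110, mm10), which binds retinoic acid in the cytoplasm, had the most even difference among the 15 highest. It had 11.5 and 17.1 against 153 CPM in control, 12.6 and 12.7 against 177 with eutherian CRX, and 10.7 and 17.1 against 114 with metatherian CRX (3.44 ± 0.36). The chemokine gene Ccl11, which attracts eosinophils, had 0.344 and 1.07 against 5.16 CPM, 0.151 and 0.148 against 1.86, and 0.114 and 0.346 against 3.64 (3.48 ± 0.49). For both, every library numbered 3 lay above all 6 others. The filter used condition means that include number 3. Genes with low values in numbers 1 and 2, such as Ccl11 and Krt18, may have passed it only through number 3. The other 10 genes were Prl3d2 (3.95), Tfpi2 (3.71), Car8 (3.41), Mmp10 (3.32), Adcyap1r1 (3.31), Areg (3.16), Dynap (2.98), Nptx1 (2.85), Itga2 (2.82) and Sema7a (2.76). Prl3d2 belongs to a family of near-identical placental prolactin genes whose reads may be shared, and its value is uncertain. Areg encodes the EGF receptor ligand amphiregulin, Tfpi2 an inhibitor of serine proteases and Itga2 a collagen receptor subunit. Areg stood at 4.32, 21.6 and 22.5 CPM in number 3 (control, eutherian and metatherian CRX), but at 4.89 and 9.37 CPM in metatherian CRX 1 and 2, so that control 3 lay below both of those.

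Among the 15 lowest were chemokines, other secreted proteins and matrix proteins. Cxcl15, a chemokine gene, had 107 and 77 CPM in control 1 and 2 and 5.67 in control 3, 69.5 and 96.6 against 0.119 with eutherian CRX, and 20.5 and 9.01 against 0.536 with metatherian CRX (-5.91 ± 2.81). Cxcl5 had 108 and 82.2 against 32.1 CPM, 87.9 and 109 against 1.59, and 49.8 and 28.9 against 6.4 (-3.35 ± 2.29). Ppbp had 19.8 and 18.8 against 4.39 CPM, 23.7 and 22.6 against 0.238, and 17.1 and 11.9 against 1.41 (-3.96 ± 2.23). These 3 genes are neighbours within the CXC chemokine cluster of chromosome 5 (Cxcl5 chr5:90759298-90761625, Ppbp chr5:90768518-90770060, Cxcl15 chr5:90794534-90803067, mm10), and each also has exons annotated on other scaffolds, so that its count pools more than 1 place. In eutherian CRX 3 the count of Cxcl15 was 9 and that of Ppbp 18, and differences that rest on such counts depend on the prior count added before the log.

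Abi3bp, a matrix protein gene, had 357 and 274 against 61.3 CPM in control, 218 and 214 against 0.357 with eutherian CRX, and 40.4 and 21.7 against 6.59 with metatherian CRX (-4.55 ± 3.97). Ptx3, a secreted pattern recognition protein of innate immunity, had 1130 and 800 against 116 CPM, 740 and 964 against 7.18, and 159 and 74.2 against 30.4 (-3.91 ± 2.63). Hpgd, the enzyme that inactivates prostaglandins, had 53.8 and 29.1 against 3.72 CPM, 76.0 and 99.0 against 2.02, and 27.5 and 17.5 against 2.27 (-4.02 ± 1.20). The libraries of metatherian CRX numbered 1 and 2 stood below control 1 and 2 in all 3 genes. For Abi3bp metatherian CRX 1 and 2 both lay below control 3, and for Ptx3 metatherian CRX 2 did. The other 9 were Epyc (-4.16), Lrrtm3 (-4.06), Arsi (-3.70), Cdsn (-3.53), Rspo2 (-3.41), Rarres1 (-3.38), Wisp2 (-3.36), Wfdc1 (-3.29) and Cav3 (-3.24). Rspo2 amplifies Wnt signalling at the cell surface, and Epyc encodes a small proteoglycan. Cdsn also has exons on other scaffolds.

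**Figure D2:**
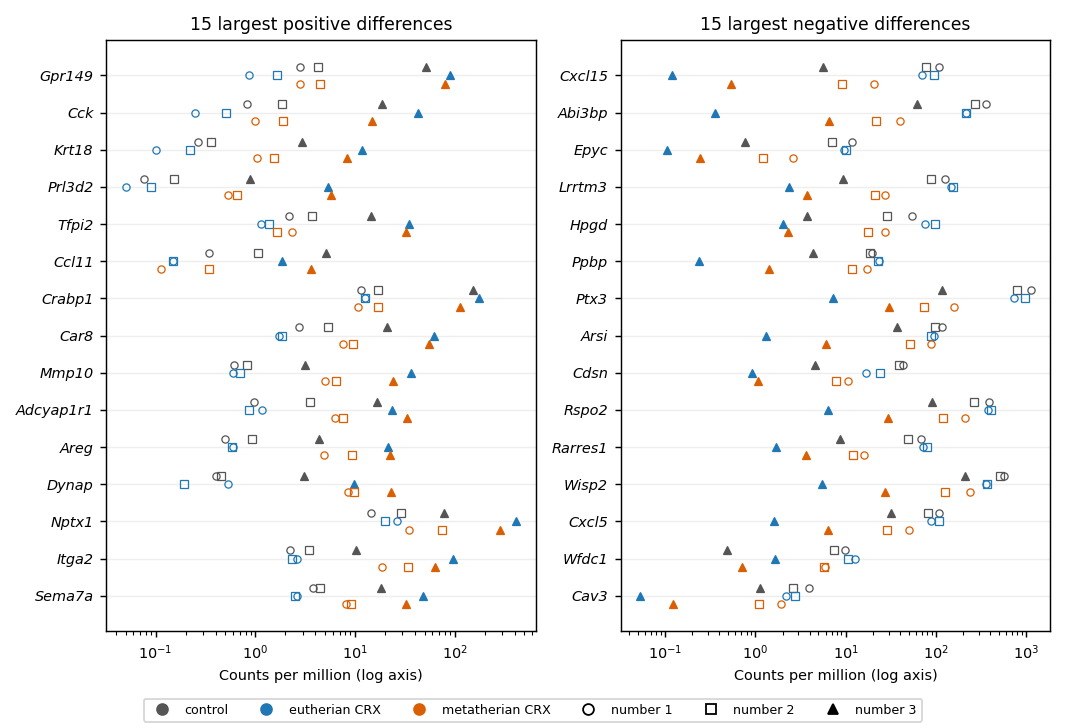
CPM (x axis, log scale) of the 15 separated genes with the largest positive mean differences (left) and the 15 with the largest negative ones (right) in each of the 9 libraries. Colour marks the condition and shape the replicate number. The filled triangles (number 3) lie to the right of both open symbols of their colour on the left panel and to their left on the right panel.

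The Hox genes divided in part by group number and in part by cluster. Of the 39 Hox genes listed, 22 were kept, of which 9 were separated higher and 2 lower (2.17% and 2.73% of all genes were). Since some passed the filter only with the library in which they were high, all genes with a count are described as well. Of the 22 genes with counts in groups 1 to 8, 21 had a mean difference above 0, 17 lay above both other libraries in every condition and none lay below them, where 12.3% and 10.9% of the 18312 genes with a count did. Of the 16 in groups 9 to 13, 9 had a mean difference below 0, 7 lay below both other libraries in every condition and 4 lay above them. The 7 were in the HoxA (3) and HoxD (4) clusters, and the 4 were Hoxb9, Hoxc9, Hoxc11 and Hoxc12. Group number and cluster were therefore mixed, and the cut between groups 8 and 9 was not planned.

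The HoxB cluster on chromosome 11 stood highest, with 8 of its 9 genes with counts separated higher, as were 4.18% of the 18312 genes. Hoxb4 had 2.71 and 4.09 against 8.89 CPM in control, 0.904 and 1.16 against 6.31 with eutherian CRX, and 1.17 and 1.32 against 5.47 with metatherian CRX (2.04 ± 0.60). Hoxb9 had 23.6 and 35.6 against 60.2 CPM, 13.2 and 15.1 against 45.3, and 15.9 and 15.5 against 46.7 (1.44 ± 0.33). For both genes all 3 libraries numbered 3 lay above all 6 others. Hoxb7 (1.88 ± 0.32), Hoxb2 (1.83 ± 0.46), Hoxb8 (1.71 ± 0.23), Hoxb6 (1.66 ± 0.45), Hoxa5 (1.37 ± 0.40), Hoxc6 (1.31 ± 0.25) and Hoxc5 (1.24 ± 0.20) were also separated higher.

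At the other end, Hoxd13, which patterns the digits, had 197 and 153 against 62.9 CPM in control, 264 and 267 against 77.2 with eutherian CRX, and 164 and 160 against 84.9 with metatherian CRX (-1.39 ± 0.43). Hoxa13, its counterpart in the HoxA cluster, had 11.3 and 10.8 against 6.23 CPM, 15.8 and 16.4 against 7.99, and 10.5 and 12.6 against 4.75 (-1.03 ± 0.22). Both genes were lower in every library numbered 3 than in all 6 others. Hoxd10, Hoxd11 and Hoxd12 had mean differences of -0.44, -0.57 and -0.62, and Hoxa9 and Hoxa10 of -0.26 and -0.44, all 5 below both other libraries in every condition and under 2-fold. Within the HoxC cluster, Hoxc8 (0.89) and Hoxc9 (0.93) lay above both others in every condition, and Hoxc10 (0.25) did not. Hoxc11 (0.69) and Hoxc12 (0.78), both below the filter, also lay above both others in every condition. Without control 3, 17 of the 22 passed the filter and their median was 0.029, against 0.74. Among the 22 kept Hox genes, 3 had a difference that depended on the condition in the interaction test described below, where 29.6% of all genes did.

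**Figure D3:**
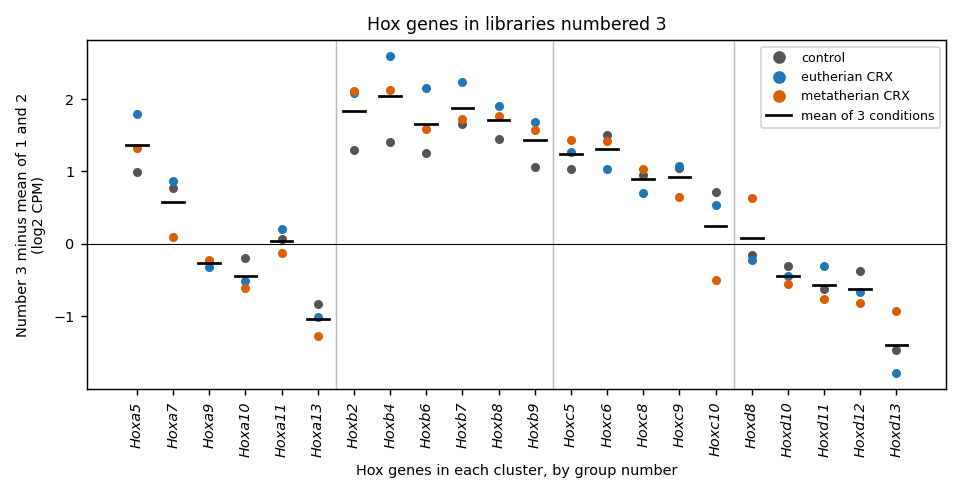
Log2 CPM of number 3 minus the mean of numbers 1 and 2 (y axis) for the 22 kept Hox genes (x axis, by cluster and group number), with a point for each condition and a bar at their mean. The HoxB genes have means of 1.44 to 2.04, and Hoxa13 and Hoxd13 are the lowest of their clusters, at -1.03 and -1.39.

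Other transcription factors of mesenchymal position were separated in both directions. Of 50 listed, 13 were separated higher and 6 lower without the filter, against 4.18% and 3.13% of the 18312 genes. Of the 31 kept, 6 were higher (Alx4, Twist2, Tbx3, Foxf2, En1 and Emx2, 1.09 to 1.70) and 4 lower (Msx1, Osr1, Prrx2 and Lhx2, -1.72 to -1.08). Msx1, active in limb and facial mesenchyme, had 43.7 and 39.0 against 14.4 CPM in control, 57.1 and 54.6 against 12.2 with eutherian CRX, and 14.7 and 18.9 against 6.10 with metatherian CRX (-1.72 ± 0.41). Alx4, also a homeobox gene of limb and craniofacial mesenchyme, had 8.53 and 8.88 against 20.9 CPM, 1.46 and 2.37 against 9.57, and 3.68 and 3.42 against 10.1 (1.70 ± 0.57). Emx2 differed by 0.91, 1.08 and 1.27 in the 3 conditions. Pax3, which was below the filter and was singled out after its values were seen, had 0.191 and 0.141 against 3.68 CPM, 0.0502 and 0.119 against 1.73, and 0.101 and 0.107 against 2.01 (4.09 ± 0.16). Pax3 marks the dermomyotome and neural crest of the embryo, and every library numbered 3 had at least 9 times the highest of the other 6.

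Transcripts of mitosis were higher in number 3. All 25 mitosis genes listed had a mean difference above 0, with 24 above both other libraries in every condition (12.3% of genes without the filter). All 22 kept mitosis genes had a mean difference above 0, 21 of them lay above both other libraries in every condition (12.1% of all genes did), and 7 were separated higher (2.17% of all genes were). The median was 0.79, against -0.024 over all genes, with medians of 0.96, 0.79 and 0.74 in control, eutherian and metatherian CRX. Cenpa, the histone of the centromere, had 2.92 and 3.47 against 9.82 CPM in control, 0.929 and 1.31 against 3.91 with eutherian CRX, and 1.72 and 2.42 against 4.82 with metatherian CRX (1.55 ± 0.29). Ccnb2, which encodes cyclin B2, had 4 and 4.63 against 12.8 CPM, 0.941 and 1.86 against 4.64, and 3.23 and 2.48 against 6.16 (1.49 ± 0.35). In both genes every library numbered 3 lay above all 6 others, for Ccnb2 by a narrow margin between eutherian CRX 3 and control 2. Kif23, a motor of cell division, differed by 1.42 ± 0.26 and Plk1, a mitotic kinase, by 1.24 ± 0.73. Mki67, a general mark of cycling cells, had 37.1 and 46.8 against 63.8 CPM, 9.63 and 8.70 against 19.4, and 22.8 and 19 against 40.1 (0.88 ± 0.24), under the 2-fold threshold. Of the 24 kept genes of DNA replication and S phase, none was separated, near the share of 4.9% over all genes, and 12 lay above 0. Ccne2, which encodes cyclin E2, lay below both others in every condition (-0.80 ± 0.27).

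Collagen and matrix transcripts were mostly lower in number 3 of the CRX conditions, while in control their medians lay just above 0. Summed fibroblast markers, which include collagen genes, were lower in the same libraries, with Thy1 and Pdgfra higher, and their part was not tested. Of 20 kept collagen chains, 6 were separated lower (Col3a1, Col2a1, Col8a2, Col12a1, Col1a1 and Col8a1) and 2 higher (Col7a1 and Col18a1), against 2.73% and 2.17% of all genes. Col3a1, a fibrillar chain, had 9220 and 6720 against 3600 CPM in control, 5140 and 6140 against 294 with eutherian CRX, and 2130 and 1310 against 752 with metatherian CRX (-2.18 ± 1.80). Col1a1, the main chain of type I collagen, had 9970 and 9120 against 7560 CPM, 6530 and 6130 against 1090, and 5340 and 4740 against 1050 (-1.71 ± 1.20). Col7a1, the anchoring fibril collagen, had 9.69 and 11.8 against 54.5 CPM, 6.81 and 5.14 against 54.7, and 19.1 and 24.9 against 27 (1.95 ± 1.49). Over the 20 chains the median difference was 0.11 for the control, -1.28 for eutherian and -1.10 for metatherian CRX, and all 20 depended on the condition in the interaction test, as did 29.6% of all genes. Of these, 14 were more negative with eutherian CRX than in control and 14 with metatherian CRX, and none was more positive with either. Without eutherian CRX 1, 12 of the 20 depended on the condition (4.71% of all genes did), and without eutherian CRX 2, 8 did (1.12%), when no gene at all was called for eutherian CRX against control.

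Of 42 kept matrix glycoproteins, proteoglycans and cross-linking enzymes, 11 were separated lower and none higher (2.73% and 2.17% of all genes were), with a median difference of 0.071 for the control, -0.99 for eutherian and -0.47 for metatherian CRX. Ogn, a small proteoglycan, had 1150 and 617 against 375 CPM in control, 627 and 842 against 8.91 with eutherian CRX, and 450 and 175 against 103 with metatherian CRX (-2.99 ± 2.91). Lox, the enzyme that cross-links collagen and elastin, had 13500 and 9070 against 4550 CPM, 9640 and 11700 against 567, and 6210 and 3570 against 1660 (-2.34 ± 1.64). Both genes had their lowest value in eutherian CRX 3. Fmod (-2.23) and Nid2 (-2.17) followed, and Mfap5, Eln, Fbn2, Lama4, Sparc, Thbs1 and Fbn1 were the other 7 (-1.99 to -1.16). Among matrix proteases and their inhibitors (23 kept), Mmp10, Fap and Mmp3 were among the separated genes that were higher and Adamts5, Adamts1 and Timp3 among those that were lower. Fap, a surface protease of activated fibroblasts, had 4.89 and 5.06 against 21.3 CPM, 2.45 and 3.15 against 11.3, and 4.27 and 3.79 against 19.8 (2.13 ± 0.14), nearly the same difference in each condition.

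Growth factor genes divided as well. Bmp4 had 215 and 214 against 42.9 CPM in control, 231 and 232 against 15.6 with eutherian CRX, and 83.7 and 61.3 against 14.5 with metatherian CRX (-2.84 ± 0.91). Bmp2, a ligand of the same receptors, had 2.43 and 3.78 against 12.2 CPM, 5.40 and 5.21 against 77.1, and 12.5 and 20.7 against 37.8 (2.36 ± 1.35). Grem1, an extracellular antagonist of both, had 215 and 243 against 694 CPM, 183 and 228 against 787, and 293 and 308 against 785 (1.64 ± 0.28). Bmp4 was thus lower while Bmp2 and Grem1 were higher in every library numbered 3 than in numbers 1 and 2 of its condition. Of the 15 kept Wnt and BMP genes, Dkk3, Axin2 and Wnt11 were also lower (-1.37 to -1.26). Of 10 IGF axis genes, Igfbp2 (-3.12 ± 1.78), Pappa (-1.18) and Igf1 (-1.10) were lower. Of 11 FGF and PDGF genes, Fgfr2 (-1.94) and Pdgfd (-1.56) were lower. Over all genes 2.73% were separated lower.

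Of 19 kept immediate early and ERK feedback genes, 5 were separated higher (2.17% of all genes were) and none lower (2.73%). Dusp4, a phosphatase that inactivates ERK, had 12.6 and 27.1 against 64.1 CPM in control, 6.65 and 7.39 against 126 with eutherian CRX, and 22.3 and 32.5 against 109 with metatherian CRX (2.66 ± 1.31). Dusp6 (1.79 ± 1.51), Dusp5 (1.64 ± 1.71), Egr3 (1.60 ± 1.42) and Spry4 (1.24 ± 0.98), other targets and inhibitors of this pathway, were the rest. In all 5 the difference was largest with eutherian CRX. The early gene Fos lay below both other libraries in every condition (-0.45). Without eutherian CRX 3 the median of the list was -0.30, against 0.16 with all libraries.

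Of 21 kept NF-kB, cytokine and chemokine genes, Cxcl5, Cxcl1 (-2.44), Ccl20 (-2.01) and Cxcl12 (-1.11) were lower and Cxcl10 (1.82) and Ccl2 (1.24) higher, against 2.73% and 2.17% of all genes. Ankrd1, a target of the YAP coactivator, was higher (2.43 ± 0.99) and Amotl2, another target, was lower (-1.07 ± 0.40). Adm, which encodes adrenomedullin and responds to hypoxia, differed by -2.34 ± 1.03, and as 1 of 27 genes of glycolysis and hypoxia (3.7%) it left that list near the 4.9% of all genes. All 16 ER chaperone genes had a mean difference below 0 and 11 of them lay below both others in every condition (14.2% of all genes did), none by 2-fold, with Hspa5 at -0.74 ± 0.42. Gadd45b, which responds to stress, had 41.5 and 46.7 against 19.9 CPM, 33.5 and 32.4 against 14.5, and 17.6 and 18.2 against 8.61 (-1.13 ± 0.069). Socs3, a feedback inhibitor of cytokine receptors, differed by -0.70 ± 0.10 and Apoe, a lipid carrier, by 0.67 ± 0.26, both without overlap within any condition. Reads on the mouse Crx gene came almost only from the eutherian CRX libraries, with counts of 627, 995 and 313 in numbers 1, 2 and 3, or 7.87, 14.8 and 4.14 CPM, so that number 3 had the lowest level. The metatherian CRX libraries had 4, 0 and 0 counts and control had 0, and the 0 of a library allows up to 3 counts.

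Whether the difference of number 3 depended on the condition was tested as an interaction, which the split did not use directly, although the positions of the libraries on the components were known. Each condition has 1 library numbered 3, so the spread in this test is that between numbers 1 and 2, and a difference between conditions cannot be told apart from one between single libraries. In edgeR's quasi-likelihood F test the difference depended on the condition in 2992 genes (29.6%). The pairwise tests called 1110 genes (11%) for eutherian CRX against control, with 336 (3.33%) more positive and 774 (7.66%) more negative with CRX, 1941 (19.2%) for metatherian CRX against control, with 604 (5.98%) and 1337 (13.2%), and 2337 (23.1%) for metatherian against eutherian CRX, with 906 (8.97%) more positive and 1431 (14.2%) more negative with metatherian CRX. These counts rested on eutherian CRX 1 and 2, the pair with the smallest SD between its libraries. Without eutherian CRX 2 the test called 113 genes, and without eutherian CRX 1 it called 477. The pairwise tests with eutherian CRX then called 0 genes each without eutherian CRX 2, where 1983 (against control) and 2804 (against metatherian CRX) had an unadjusted p under 0.05. With all libraries, DESeq2 called 1770 and 3014 and limma voom 1073 and 2238 in these 2 tests.

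Interferon response genes were 3 of the 6 genes with the smallest adjusted p-values. Of 25 kept, 23 depended on the condition (29.6% of all genes did) and none was separated (4.9% were), with a median difference of 0.43 for the control, -0.59 for eutherian and -1.21 for metatherian CRX. Stat2, which carries the interferon signal to DNA, had 42.8 and 41.6 against 82.9 CPM in control, 50.3 and 51.5 against 26.9 with eutherian CRX, and 93.9 and 96.4 against 40.8 with metatherian CRX. Ifit1, an inhibitor of viral RNA translation, had 22.8 and 21.5 against 135 CPM, 34.9 and 29.2 against 34.4, and 118 and 115 against 87.4. Isg15, a ubiquitin-like protein, had 10.6 and 10.1 against 59.0 CPM, 12.7 and 10.2 against 12.5, and 47.9 and 50.8 against 19.9. Control 3 was the highest control library in each gene, and metatherian CRX 3 the lowest metatherian one.

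Without eutherian CRX 1 the joint test called 19 of the 24 interferon genes then kept, and without eutherian CRX 2 it called 15, where 4.71% and 1.12% of all genes were called.

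In these 3 genes the contrast of metatherian CRX with control took opposite signs. Within numbers 1 and 2, Isg15 was higher with metatherian CRX by 2.18 and 2.32 on the log2 scale, and within number 3 it was lower by 1.57 (log2 difference -1.57). For Stat2 the values were 1.13, 1.21 and -1.02, and for Ifit1 2.37, 2.42 and -0.63. The interaction of metatherian CRX and control was -3.82 ± 0.22 (SE) for Isg15, -3.03 ± 0.18 for Ifit1 and -2.20 ± 0.13 for Stat2, each with an adjusted p of 0.002. The joint test gave an adjusted p of 0.00381 for all 3. Over 13 alternatives the highest was 0.0294 for Ifit1 and Isg15 and 0.0438 for Stat2.

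The core of the interferon response element was looked for in promoters. RefSeq promoters (GRCm38.p6) matched 22 of the 25 interferon genes. In 9 of them (40.9%) a promoter held GAAA, any 2 bases and GAAA on either strand in the 250 bases before the start. Among all kept genes with a promoter, 229 of 7767 (2.95%) did. This is a count of letters and no sign of binding. The 250 bases before the start are shown because these genes had the strongest dependence on the condition, 5′ to 3′ on the strand of the gene, with each match in capitals (TTTC, any 2 bases and TTTC is a match on the other strand).
Isg15, chr4:156200819-156201068, minus strand: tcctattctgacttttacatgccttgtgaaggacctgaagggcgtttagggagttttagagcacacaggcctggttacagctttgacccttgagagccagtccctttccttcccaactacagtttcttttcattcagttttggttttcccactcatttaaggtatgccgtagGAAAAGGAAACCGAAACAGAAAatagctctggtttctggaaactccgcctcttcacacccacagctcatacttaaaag
Ifit1, chr19:34640639-34640888, plus strand: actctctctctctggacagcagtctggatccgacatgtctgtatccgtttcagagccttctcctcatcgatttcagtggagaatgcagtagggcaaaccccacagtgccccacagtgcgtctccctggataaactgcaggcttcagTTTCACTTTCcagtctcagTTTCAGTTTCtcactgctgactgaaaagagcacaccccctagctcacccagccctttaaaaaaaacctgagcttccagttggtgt
Stat2, chr10:128270248-128270497, plus strand: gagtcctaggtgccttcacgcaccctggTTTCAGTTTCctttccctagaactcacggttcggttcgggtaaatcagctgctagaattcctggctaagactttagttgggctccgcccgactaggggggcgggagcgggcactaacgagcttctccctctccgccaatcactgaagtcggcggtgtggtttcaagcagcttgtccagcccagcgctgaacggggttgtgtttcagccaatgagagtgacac
Isg15 holds 3 overlapping matches in 1 stretch, Ifit1 holds 2 and Stat2 holds 1. Of the separated genes 70.3% (higher) and 66.3% (lower) matched a promoter, against 76.9% of all kept genes. Because the match was incomplete, motif shares over them are not given.

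The other 3 genes with the smallest adjusted p-values belong to matrix and stress responses. Itga11, a collagen receptor subunit, had 110 and 118 against 251 CPM in control, 58.4 and 61.5 against 22.1 with eutherian CRX, and 92.1 and 83.0 against 55.2 with metatherian CRX (adjusted p = 0.00409). Postn, the matricellular protein periostin, had 4160 and 3400 against 1860 CPM, 2020 and 2280 against 281, and 243 and 179 against 807 (adjusted p = 0.00446). Nupr1, a stress-induced chromatin protein, had 39.8 and 41.8 against 66.5 CPM, 19.4 and 20.2 against 65.9, and 77.8 and 75.4 against 51.1 (adjusted p = 0.00426). Itga11 was higher in number 3 of control only, Postn only of metatherian CRX, and Nupr1 of control and eutherian CRX.

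**Figure D4:**
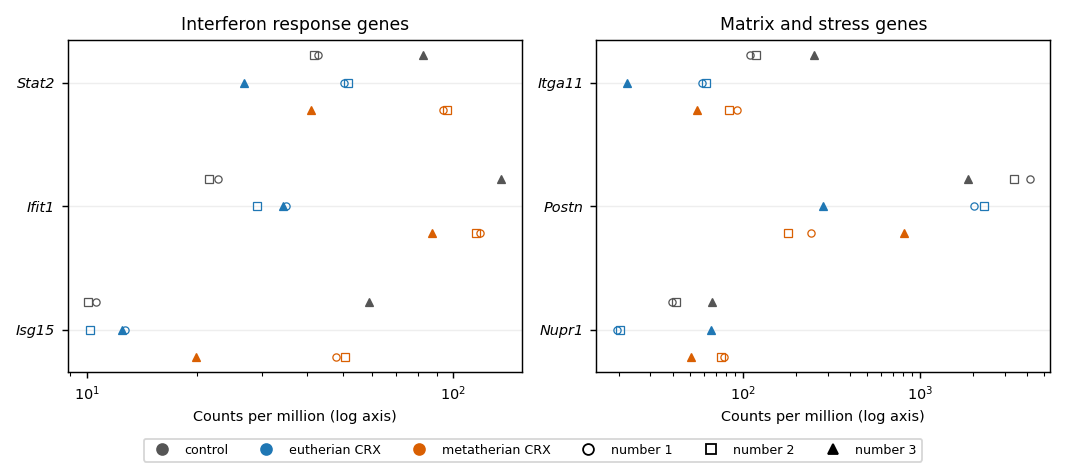
CPM (x axis, log scale) in the 9 libraries of the 6 genes with the smallest adjusted p in the interaction test. For Stat2, Ifit1 and Isg15 the filled triangle of control lies right of its open symbols (135 against 22.8 and 21.5 CPM for Ifit1) and that of metatherian CRX lies left of its own.

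Contractile genes also depended on the condition in 14 of 15, against 29.6% of all genes, and none was separated, against 4.9%. The median difference was 0.44 for the control, -1.25 for eutherian and 0.0094 for metatherian CRX. Cnn1, which encodes calponin, had 53.7 and 64.2 against 76.6 CPM, 38.6 and 33.6 against 2.80, and 10.7 and 7.10 against 11.8 (adjusted p = 0.0051). Myl9, a myosin light chain, had 222 and 246 against 312 CPM, 181 and 170 against 26.5, and 105 and 74.1 against 76.3 (adjusted p = 0.00515). Eutherian CRX 3 alone was far below its pair in both. Cholesterol and fatty acid synthesis genes (29 kept) depended on the condition in 21, against 29.6% of all genes, and none was separated, against 4.9%, with medians of 0.47, -0.26 and -0.29. Without eutherian CRX 1 and without eutherian CRX 2, the contractile count was 8 and 6, and the cholesterol and fatty acid count was 4 and 1. In these 2 settings 4.71% and 1.12% of all genes were called.

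Of the genes the study followed by quantitative PCR, Hbegf, an EGF receptor ligand, had 116 and 194 against 92.7 CPM in control, 102 and 89.2 against 257 with eutherian CRX, and 215 and 272 against 232 with metatherian CRX (adjusted p = 0.022). Ptgs2, the inducible prostaglandin synthase, had 206 and 329 against 246 CPM, 151 and 135 against 379, and 446 and 401 against 495 (adjusted p = 0.0348). Smarca1, a chromatin remodeller, had 21.2 and 17.0 against 14.2 CPM, 20.3 and 22.4 against 4.91, and 12.7 and 9.39 against 8.56 (adjusted p = 0.016). In all 3 genes eutherian CRX 3 lay farthest from its pair. Without eutherian CRX 1 or 2 none of the 3 passed the threshold, with adjusted p-values of 0.0636 to 0.141.

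**Figure D5:**
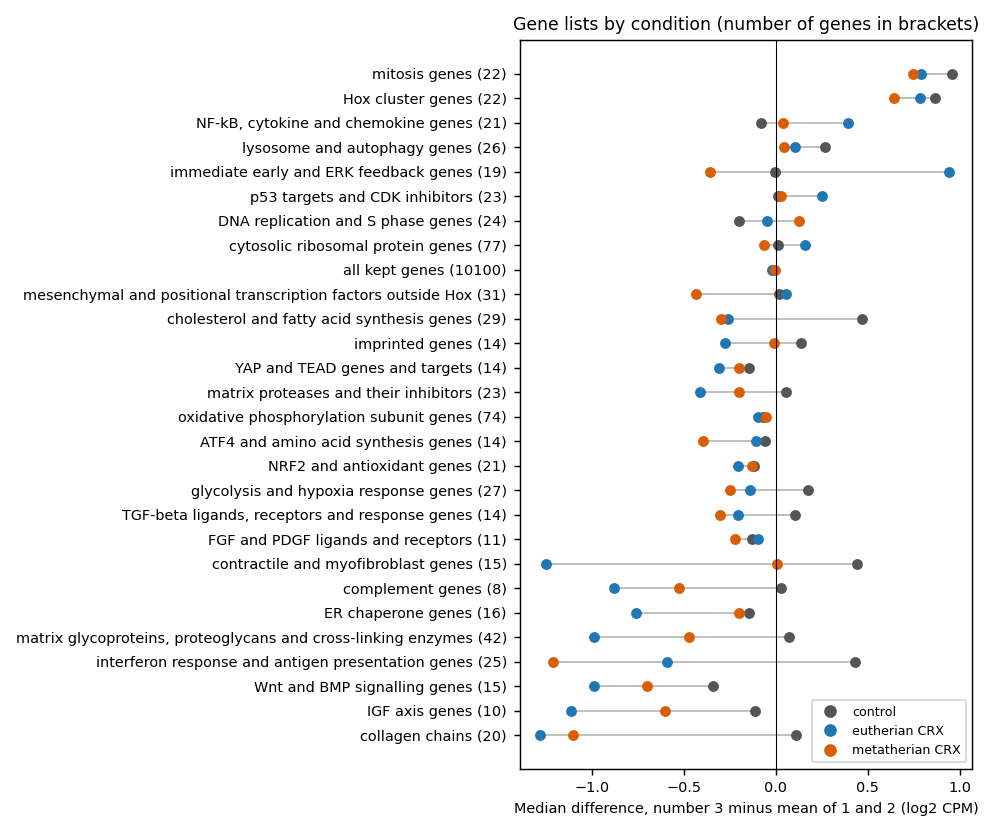
Median over the kept genes of each list of the log2 CPM of number 3 minus the mean of numbers 1 and 2 (x axis), with a point for each condition and the number of genes in brackets. Mitosis and Hox genes lie above 0 in every condition (0.64 to 0.96, although the Hox median of the mean difference is 0.029 without control 3, when 17 of the 22 genes are kept), while collagen, contractile and interferon genes spread from above 0 in control to below -1 in a CRX condition.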

How the data were processed

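Poly(A) RNA of 9 MEF cultures was sequenced. The authors aligned paired reads to mm10 with STAR and deposited raw counts per gene from featureCounts. Annotation release, strand setting and the handling of reads with several alignments are not given in the sources used here. The genes, lists and the split itself were chosen with earlier results of these data known.

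The table lists 22068 genes, 3756 of them at 0 throughout. In edgeR 4.0.16 (R 4.3.3, limma 3.58.1), filterByExpr kept 14599, and a mean FPKM above 2 in a condition, computed here, left 10100. CPM used TMM factors (0.947 to 1.11), and log2 CPM a prior count of 2. A gene was separated when number 3 lay above (or below) both others in every condition with a mean difference of at least 1 (log2). The interaction of number 3 with condition was tested with glmQLFit and glmQLFTest, with 3 residual degrees of freedom, Benjamini-Hochberg adjustment over 10100 genes and a threshold of 0.05. Standard errors are the log2 value divided by the square root of F. The tests were run on simulated data first.

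Named were the 15 highest and lowest separated genes, up to 4 separated members of each list (or 2 others), the 6 smallest interaction p-values, defining markers, genes next to the threshold, Crx, the genes of the study's quantitative PCR, and Apoe, Gadd45b, Socs3 and Mki67. Further list members were named after their values were seen. Alternatives were 2 scalings, 2 filters, another prior count, 2 thresholds, 3 other blocks, DESeq2 1.42.0, limma voom and each library left out. Depth limits low counts, and floors of 3 counts cover counting error only. Xist and Mx1 were not analysed here. Some list members are not reported here.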

Additional observations from a re-analysis of the deposited data

Results flagged for a closer look

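The difference of number 3 from numbers 1 and 2 depended on the condition, by the test of the difference itself, in 2992 genes in the joint test, 1110 for eutherian CRX against control, 1941 for metatherian CRX against control and 2337 for metatherian against eutherian CRX. Among single genes, the adjusted p-value of this test was 0.00381 for Stat2, 0.00381 for Ifit1, 0.00381 for Isg15, 0.00409 for Itga11, 0.00426 for Nupr1, 0.00446 for Postn, 0.016 for Smarca1, 0.022 for Hbegf and 0.0348 for Ptgs2. With 1 library numbered 3 in each condition, conditions and single libraries cannot be told apart in any of them. Dixon's test of a single outlying value was not run on conditions of 3 libraries.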

How the results depend on the processing

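The 219 higher and 276 lower genes became 669 and 531 with filterByExpr alone, 766 and 574 with no filter, 473 and 589 at a 1.5-fold threshold, 48 and 62 at 4-fold, and 124 and 154 where every number 3 library had to pass all 6 others. They ran from 156 to 346 and from 186 to 438 with 1 library left out. Other scalings, a prior count of 0.5 and the edgeR fit kept both within 1.5 times. The replicate number is itself the comparison, so a replicate block could only set numbers 1 and 2 apart. With that block the counts were 223 and 270, and the interaction was called in 3937 genes jointly and in 1522, 2617 and 3091 in the pairwise tests. The labels give the number no meaning, and whether it marks the pairs the study speaks of is not stated.

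The interaction of eutherian CRX and control was called in 1827 genes with no filter and 1770 with DESeq2. With 1 library left out, the joint test called 113 to 4056 genes (113 without eutherian CRX 2), eutherian CRX against control 0 to 1568, metatherian CRX against control 238 to 2629 and metatherian against eutherian CRX 0 to 3407. The cause was not tested. Without a number 3 library its condition has no interaction term, and only the remaining pair was tested. Scaling moved the median of all genes by at most 0.02 (log2). For 134 genes taken by the naming rule the difference was recomputed under other scalings and with libraries left out, and none of these 1461 values moved by more than the SD. That SD is over the same 3 differences whose mean was recomputed. Leaving out 1 library could hardly move the mean by more, so the outcome was nearly fixed and shows no stability. Of 308 list medians recomputed likewise, 8 moved by at least the SD of the list's medians over conditions. The Hox median was 0.029 without control 3, when 17 of the 22 genes passed the filter. Matrix proteases moved to -0.39 and FGF and PDGF genes to -0.29 without control 3, from -0.12 and -0.20. Mesenchymal transcription factors moved to -0.34 without eutherian CRX 3, from -0.027. Antioxidant, ribosomal protein, oxidative phosphorylation and FGF and PDGF genes moved without metatherian CRX 3. The contractile median, not among the 8, was 0.20 without eutherian CRX 3, against -0.27.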
